A study of Mus musculus with 9 samples.

Results

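The 39 genes described here encode the machinery of mitosis and of the spindle. They include 8 mitotic cyclins, kinases and regulators of them, 5 genes of the spindle checkpoint and of centrosome kinases, 3 of anaphase and protein destruction, and 4 of the chromosomal passenger complex. A further 5 belong to the centromere and kinetochore, 3 to spindle motors and spindle assembly, 7 to the midzone and cytokinesis, 2 to chromosome structure, and 2 are transcription factors. They were taken by name, as every non-control probe whose gene name in the array files was that of a listed gene or a synonym of it (Cdc2a on these arrays is Cdk1). This gave 64 probes for 39 genes, of 41174 probes and 28478 gene names in all. All 39 were among the 19993 genes tested. Of them, 10 passed the filter on low values only through MHCIIhi cells (Ccnb1, Cdc25c, Bub1, Ttk, Nek2, Espl1, Aurkb, Kif11, Kif2c and Anln), so a difference was bound to appear for these, and the other 29 were well above background on all 3 arrays of a further group.

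Mitosis is driven by Cdk1 bound to cyclins A and B, which the Aurora and Polo-like kinases assist in building the bipolar spindle. The spindle checkpoint holds back the anaphase-promoting complex until every kinetochore is attached, after which securin and cyclin B are destroyed, separase cuts cohesin, and the cytokinetic ring closes at the midzone. Most of these genes are transcribed in G2 phase and mitosis, under the transcription factors FoxM1, B-Myb and the MuvB complex, so their transcripts mark dividing cells. In the small intestine division takes place in the crypts, among stem cells and transit-amplifying cells, and stops as cells move onto the villus, whereas the tubule cells of the adult kidney divide rarely.

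RNA came from epithelial cells of C57BL/6 mice in 3 sorted groups, each with 3 independent replicates, each replicate a pool of mice. MHCIIhi cells were small intestinal cells that stained strongly for Epcam and for MHC class II on their surface, and MHCIIlo cells were small intestinal cells with intermediate levels of both, each replicate being a pool of 3 mice. Kidney cells were Epcam-positive cells freed by enzymes, each replicate being a pool of 4 mice. The gates removed cells positive for CD45, a leukocyte surface protein, or for Fluorogold, which marks dead cells, and no genetic change or treatment is given in the labels for any group. The gates do not select a crypt or villus position or a phase of the cell cycle. In such bulk samples, fewer cells of a type and less RNA per cell cannot be told apart.

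Each replicate was read on its own single-colour array, where the signal of a 60-base probe is a brightness. A level below is log2 of the processed signal minus the 75th percentile of the same array, so 0 means a signal as bright as that percentile. Levels of different genes come from different probes and are not set against each other. A call, higher or lower, required a difference of 1 or more on the log2 scale together with an adjusted p under 0.05. Every adjusted p is limma's, by Benjamini-Hochberg over all 19993 genes, and differences are given ± SE. The lowest signal that counted as measured lay between -5.37 and -4.57 for MHCIIhi arrays, between -4.35 and -3.43 for MHCIIlo and between -6.11 and -5.80 for kidney, so a dim gene could be followed further down in kidney than in MHCIIlo. Where the dimmer group was not well above background on all its arrays, the fold is a bound, written "at least", computed against that lowest signal. MHCIIhi 3 lay on the slide of the 3 MHCIIlo arrays, MHCIIhi 1 and 2 on another, and the kidney arrays had a separate slide, so that slide and tissue cannot be told apart for kidney.

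RefSeq promoters on GRCm38.p6, from 250 bases before to 50 bases after the transcription start, were given for 31 of the 39 genes (33 promoters), and not for Aurkb, Ccna2, Cdc25c, Foxm1, Incenp, Kif20a, Shcbp1 and Tpx2. As background, MuvB complexes bind a short element near the start of such genes, the cell cycle genes homology region (CHR), whose core reads TTTGAA. The factor NF-Y binds CCAAT. On either strand, TTTGAA was present in 24 of 33 promoters (72.7%), against 17.9% of all 32851 promoters and 12.5% of the 14795 promoters of genes tested on the arrays. CCAAT was present in 25 of 33 (75.8%), against 37.4% of all promoters and 37.4% of those of genes tested. At least 2 CCAAT matches were present in 48.5% against 11.7% of all promoters, and TTTGAA together with CCAAT in 63.6% against 6.95%. Among 60 promoters of other mitosis genes, named further on, TTTGAA was present in 48.3% and CCAAT in 70%. The motifs share at most an end base, which happened at 1 place in the member promoters. A match describes these letters and does not show a bound site.

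The 110 bases before the transcription start are shown for 6 genes picked because TTTGAA lies in that stretch, and for Mybl2, an example with neither motif in its promoter. The choice was made with the levels known. They read 5′ to 3′ on the strand of the gene and end at the base before the start, and the capitals mark TTTGAA and CCAAT on either strand. They lie at chr10:69352913-69353022 (minus strand) for Cdk1, chr4:118437344-118437453 (minus) for Cdc20, chr2:164769819-164769928 (plus) for Ube2c, chr11:99024190-99024299 (minus) for Top2a, chr15:102296183-102296292 (plus) for Espl1, chr19:37376272-37376381 (plus) for Kif11 and chr2:163054525-163054634 (plus) for Mybl2.
Cdk1: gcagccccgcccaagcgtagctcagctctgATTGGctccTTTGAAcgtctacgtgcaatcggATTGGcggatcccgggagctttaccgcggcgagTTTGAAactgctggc
Cdc20: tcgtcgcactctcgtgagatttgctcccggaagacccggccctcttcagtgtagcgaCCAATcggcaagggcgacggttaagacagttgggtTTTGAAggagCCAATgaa
Ube2c: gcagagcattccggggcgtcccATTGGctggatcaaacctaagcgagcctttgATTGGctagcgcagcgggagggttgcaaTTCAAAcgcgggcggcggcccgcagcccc
Top2a: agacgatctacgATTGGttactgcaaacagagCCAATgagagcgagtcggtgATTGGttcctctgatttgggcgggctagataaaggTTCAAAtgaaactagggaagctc
Espl1: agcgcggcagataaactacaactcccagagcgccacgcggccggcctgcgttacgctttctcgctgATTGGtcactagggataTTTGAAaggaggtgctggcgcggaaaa
Kif11: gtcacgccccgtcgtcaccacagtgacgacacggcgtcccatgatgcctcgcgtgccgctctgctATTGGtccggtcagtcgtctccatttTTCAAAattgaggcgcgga
Mybl2: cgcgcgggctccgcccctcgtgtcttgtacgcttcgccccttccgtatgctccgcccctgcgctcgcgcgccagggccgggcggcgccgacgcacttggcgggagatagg
In the 6 promoters with TTTGAA shown, the match nearest the start began 15 (Cdk1), 18 (Cdc20), 29 (Ube2c), 23 (Top2a), 27 (Espl1) and 19 (Kif11) bases before it. Cdk1 held a further match 71 bases before the start. That position is not the usual one: of the 22 genes with TTTGAA, 7 held a match within 60 bases before the start, the 6 shown among them. In many others the match nearest the start lay after it, for example at base 3 for Cenpf, 31 for Plk1 and 41 for Bub1b. Neither motif was found in the promoters of Birc5, Mad2l1, Melk, Mybl2 and Nuf2. The 22 genes with TTTGAA had a median fitted log2 difference between MHCIIhi and MHCIIlo of 3.74, and the 9 genes without it one of 4.04.

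All 39 genes were higher in MHCIIhi than in MHCIIlo cells and all 39 were lower in kidney than in MHCIIhi cells. Between the intestinal groups the median fitted log2 difference was 3.88, with adjusted p between 0.000267 and 0.00572. The lowest was that of Ttk, which passed the filter only through MHCIIhi. Over all genes tested the median of that comparison was -0.24, 14.9% were called higher and 16.1% lower, and none of the 39 was called lower. The 22 genes measured on all arrays of MHCIIhi and MHCIIlo had a median difference of 3.54, from 1.13 for Mybl2 to 4.42 for Ccna2. For the other 17 the fold is a bound, from at least 2.01 for Ttk to at least 21.4 for Shcbp1. With these genes at their bound, the median of the 39 was 3.54. The 29 genes that entered the test through a further group were all higher too, by a median of 3.78, with adjusted p between 0.000285 (Mki67) and 0.00572 (Ndc80). The MHCIIhi and MHCIIlo arrays did not overlap for any of the 39 genes, where 56.4% of all genes tested did not overlap.

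**Figure D1:**
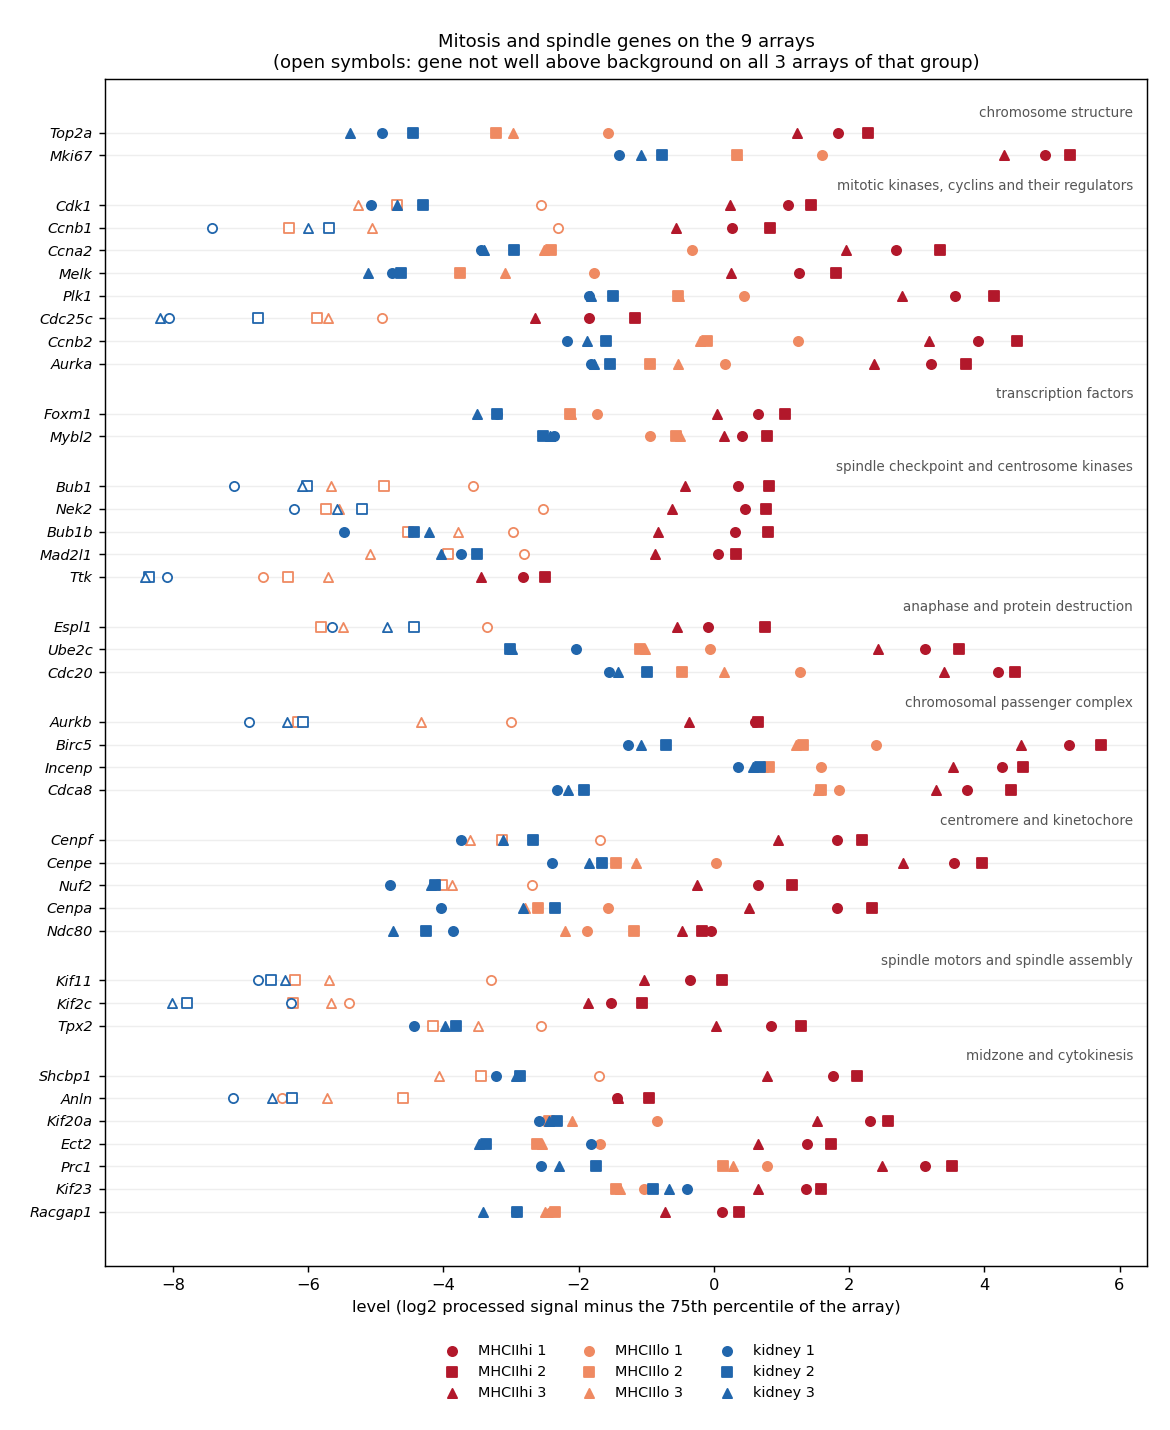
Levels of the 39 genes on the 9 arrays (log2 processed signal minus the 75th percentile of the array), by role and, within a role, by the difference between MHCIIhi and MHCIIlo. Circles, squares and triangles are replicates 1, 2 and 3, and open symbols mark genes not well above background on all 3 arrays of that group; the MHCIIhi arrays lie to the right of the other 6 arrays for all 39 genes, and MHCIIlo 1 lies highest in its group for 34.

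Slide bears on the intestinal comparison. With slide as a fixed block, which in effect sets MHCIIhi 3 against the MHCIIlo arrays of its slide, 35 of 39 genes were called higher, with a median of 3.13 and a range of 0.82 to 4.41. In that fit 6.9% of all genes tested were called higher. The 4 that were not called were Ccnb1 at 3.98 (adjusted p = 0.101 with the block), Nek2 at 3.98 (0.0651), Ndc80 at 1.28 (0.111) and Mybl2 at 0.82 (0.0935). The background correction bears on it as well: with normexp correction and an offset of 50, 33 genes were called, with a median of 2.14, where 7.18% of all genes tested were called higher and their median was -0.50, and Cdc25c, Mybl2, Ttk, Ndc80, Kif2c and Anln were not.

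Chromosome structure was represented by Mki67 and Top2a, and both were higher in MHCIIhi. Mki67 encodes Ki-67, which coats mitotic chromosomes and is the usual histological marker of cycling cells. Its level was 4.90, 5.27 and 4.29 in MHCIIhi, against 1.60, 0.35 and 0.34 in MHCIIlo and, in kidney, -1.41, -0.76 and -1.08. The 3 groups lay apart in that order. MHCIIhi exceeded MHCIIlo by 4.06 ± 0.39 (adjusted p = 0.000285), a fold of 16.7, and kidney lay below MHCIIlo by a further 3.59-fold (adjusted p = 0.00229). Top2a encodes topoisomerase II alpha, which untangles sister chromatids. Its level was 1.83, 2.28 and 1.23 in MHCIIhi, against -1.57, -3.22 and -2.97 in MHCIIlo and, in kidney, -4.91, -4.44 and -5.38. These groups were likewise apart, MHCIIhi above MHCIIlo by 4.37 ± 0.46 (adjusted p = 0.000386) and kidney 104-fold below MHCIIhi (adjusted p = 3.35e-06).

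The 8 mitotic cyclins, kinases and their regulators were all higher in MHCIIhi than in MHCIIlo, with a median difference of 3.84. Cdk1, the kinase that brings cells into mitosis, was measured on 1 MHCIIlo array, so its fold is a bound. Its level was 1.10, 1.44 and 0.24 in MHCIIhi, against -2.56, -4.69 and -5.26 in MHCIIlo, where MHCIIlo 1 was the array well above background, and, in kidney, -5.07, -4.30 and -4.69. The MHCIIhi arrays stood clear of the other 6, whereas MHCIIlo and kidney overlapped. MHCIIhi was at least 19.1-fold above MHCIIlo (fitted difference 5.10 ± 0.64, adjusted p = 0.000731), and kidney minus MHCIIlo was -0.52 ± 0.64 (adjusted p = 0.481). Aurka, which encodes Aurora A, the kinase of the spindle poles, had the smallest difference of the 5 genes of this role measured on all 9 arrays. It read 3.22, 3.73 and 2.37 in MHCIIhi, against 0.17, -0.94 and -0.53 in MHCIIlo and, in kidney, -1.81, -1.54 and -1.78, with no overlap of the groups. MHCIIhi exceeded MHCIIlo by 3.54 ± 0.38 (adjusted p = 0.000391).

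Ccnb1 encodes cyclin B1, the partner of Cdk1. It read 0.28, 0.83 and -0.57 in MHCIIhi, against -2.30, -6.29 and -5.06 in MHCIIlo and, in kidney, -7.42, -5.69 and -6.00. MHCIIlo 1 was the array of that group that measured it, and 2 of 3 kidney arrays did. MHCIIhi was higher by 4.73 ± 0.93 (adjusted p = 0.00473), at least 10.7-fold, and kidney minus MHCIIlo was -1.82 ± 0.93 (adjusted p = 0.104), which did not pass the test. Ccnb2, for cyclin B2, was measured on all 9 arrays, at 3.91, 4.48 and 3.18 in MHCIIhi, against 1.25, -0.10 and -0.21 in MHCIIlo and, in kidney, -2.17, -1.59 and -1.88. It showed the order MHCIIhi, MHCIIlo, kidney without overlap, with 11.6-fold between the intestinal groups (adjusted p = 0.000729) and 4.58-fold between MHCIIlo and kidney (adjusted p = 0.00177). The differences between MHCIIhi and MHCIIlo were 4.42 for Ccna2 (cyclin A2), 3.98 for Melk (a kinase of dividing cells) and 3.70 for Plk1 (Polo-like kinase 1). Cdc25c, the phosphatase that activates Cdk1, was well above background on no MHCIIlo and no kidney array, so its excess in MHCIIhi was at least 4.12-fold over MHCIIlo and at least 17.1-fold over kidney.

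The transcription factors had smaller differences between the intestinal groups than the median of the 39. Foxm1, the forkhead factor of G2 and mitosis genes, read 0.65, 1.05 and 0.04 in MHCIIhi, against -1.73, -2.13 and -2.11 in MHCIIlo and, in kidney, -3.20, -3.21 and -3.50. The 3 groups did not overlap, and MHCIIhi exceeded MHCIIlo by 2.57 ± 0.26 (adjusted p = 0.000349). Mybl2, for B-Myb, which joins MuvB at such promoters, read 0.42, 0.79 and 0.15 in MHCIIhi, against -0.94, -0.57 and -0.51 in MHCIIlo and, in kidney, -2.37, -2.53 and -2.42. Its groups also lay apart, but the intestinal difference was 1.13 ± 0.21 (adjusted p = 0.0039), a 2.18-fold change. That call rested on single arrays: the difference was 0.96 without MHCIIhi 2 and 0.99 without MHCIIlo 1, below the minimum of 1. Kidney lay 3.40-fold below MHCIIlo (adjusted p = 7.10e-05).

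The checkpoint and centrosome kinase genes were higher in MHCIIhi in 5 of 5 cases, and MHCIIlo measured none of the 5 on all its arrays. Bub1, a checkpoint kinase of the kinetochore, read 0.36, 0.81 and -0.43 in MHCIIhi, against -3.57, -4.88 and -5.67 in MHCIIlo and, in kidney, -7.09, -6.02 and -6.09. MHCIIlo 1 was again the array of its group that measured it, and no kidney array did. The excess of MHCIIhi was at least 15.0-fold over MHCIIlo (difference 4.95 ± 0.55, adjusted p = 0.000452) and at least 74.2-fold over kidney (adjusted p = 9.72e-06). Ttk, the kinase Mps1 that starts checkpoint signalling, was dim everywhere, at -2.82, -2.49 and -3.44 in MHCIIhi, against -6.66, -6.29 and -5.71 in MHCIIlo and, in kidney, -8.08, -8.35 and -8.42, and was measured in MHCIIhi alone. MHCIIhi was at least 2.01-fold above MHCIIlo (fitted difference 3.30 ± 0.31, adjusted p = 0.000267), and with normexp correction the difference was -0.0605 (adjusted p = 0.784, range over the alternatives 0.000132 to 0.784).

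Mad2l1 and Bub1b encode subunits of the mitotic checkpoint complex, which binds Cdc20, and Nek2 a centrosome kinase. Mad2l1 read 0.06, 0.33 and -0.88 in MHCIIhi, against -2.81, -3.93 and -5.08 in MHCIIlo and, in kidney, -3.75, -3.50 and -4.04. MHCIIhi was at least 9.38-fold above MHCIIlo (adjusted p = 0.00126), while the kidney arrays lay within the range of MHCIIlo, with a difference of 0.18 ± 0.54 (adjusted p = 0.776). Bub1b and Nek2 were at least 11.8-fold and at least 11.5-fold higher in MHCIIhi than in MHCIIlo.

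Anaphase and protein destruction were represented by 3 genes, all higher in MHCIIhi. Espl1, for separase, the protease that cuts cohesin, read -0.08, 0.76 and -0.55 in MHCIIhi, against -3.35, -5.81 and -5.49 in MHCIIlo and, in kidney, -5.65, -4.43 and -4.84. MHCIIlo and kidney overlapped and were measured on 1 and 2 arrays. MHCIIhi was at least 12.4-fold above MHCIIlo (difference 4.93 ± 0.65, adjusted p = 0.000903), and kidney minus MHCIIlo was -0.09 ± 0.65 (adjusted p = 0.908). Cdc20, the activator of the anaphase-promoting complex and the target of the checkpoint, was bright in MHCIIhi, at 4.21, 4.45 and 3.41, against 1.28, -0.47 and 0.15 in MHCIIlo and, in kidney, -1.56, -0.99 and -1.42. The groups did not overlap, with 13.0-fold between the intestinal groups (adjusted p = 0.000605) and 3.12-fold between MHCIIlo and kidney (adjusted p = 0.00855). Ube2c, the ubiquitin-conjugating enzyme of that complex, differed by 3.77 ± 0.41 between MHCIIhi and MHCIIlo (adjusted p = 0.000427).

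The chromosomal passenger complex consists of the kinase Aurora B (Aurkb), the scaffold Incenp, survivin (Birc5) and borealin (Cdca8), and all 4 genes were higher in MHCIIhi than in MHCIIlo. Aurkb read 0.61, 0.65 and -0.36 in MHCIIhi, against -3.00, -6.16 and -4.33 in MHCIIlo and, in kidney, -6.87, -6.08 and -6.31. It was measured on 1 MHCIIlo array and on no kidney array, so MHCIIhi was at least 13.7-fold above MHCIIlo (adjusted p = 0.00136) and at least 77.7-fold above kidney (adjusted p = 3.61e-05). Cdca8 read 3.74, 4.39 and 3.29 in MHCIIhi, against 1.85, 1.59 and 1.55 in MHCIIlo and, in kidney, -2.32, -1.92 and -2.16. Here the wider gap was between MHCIIlo and kidney, 13.9-fold (adjusted p = 3.42e-06), and the gap between the intestinal groups was 4.42-fold (adjusted p = 0.00081). Incenp read 4.27, 4.57 and 3.54 in MHCIIhi, against 1.58, 0.82 and 0.73 in MHCIIlo and, in kidney, 0.36, 0.69 and 0.58. It did not share that pattern, because kidney and MHCIIlo differed by -0.50 ± 0.31 (adjusted p = 0.176), whereas the intestinal groups were 8.47-fold apart (adjusted p = 0.000347). Birc5 fell by 3.53 from MHCIIhi to MHCIIlo and by 2.66 from MHCIIlo to kidney on the log2 scale.

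The 5 centromere and kinetochore genes were higher in MHCIIhi, by a median of 4.04. Cenpf, a large protein of the outer kinetochore, read 1.82, 2.18 and 0.95 in MHCIIhi, against -1.69, -3.14 and -3.61 in MHCIIlo and, in kidney, -3.74, -2.67 and -3.12. MHCIIhi was at least 21.2-fold above MHCIIlo (adjusted p = 0.000562), and the MHCIIlo and kidney arrays overlapped. Ndc80 and Nuf2 encode partners in the complex that grips microtubules, and their values differed in size. Ndc80 read -0.04, -0.17 and -0.47 in MHCIIhi, against -1.87, -1.18 and -2.21 in MHCIIlo and, in kidney, -3.86, -4.26 and -4.75. Its 3 groups lay apart. Nuf2 read 0.65, 1.15 and -0.26 in MHCIIhi, against -2.68, -4.03 and -3.88 in MHCIIlo and, in kidney, -4.78, -4.13 and -4.18, and of the MHCIIlo arrays MHCIIlo 1 measured it. The intestinal difference was 1.52 ± 0.31 for Ndc80 (adjusted p = 0.00572) and 4.04 ± 0.45 for Nuf2 (adjusted p = 0.000438), the latter at least 14.8-fold. Between MHCIIlo and kidney it was the reverse, with Ndc80 5.81-fold lower in kidney (adjusted p = 8.96e-05) and Nuf2 at -0.83 ± 0.45 (adjusted p = 0.12). Cenpe, the kinetochore motor, read 3.55, 3.97 and 2.79 in MHCIIhi, against 0.03, -1.44 and -1.15 in MHCIIlo and, in kidney, -2.39, -1.66 and -1.84. It differed by 4.29 ± 0.43 between the intestinal groups (adjusted p = 0.000341) and was lower in kidney than in MHCIIlo by 2.16-fold (adjusted p = 0.0432). Cenpa, the histone variant that marks centromeres, differed by 3.88 ± 0.58 between the intestinal groups (adjusted p = 0.00159).

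Of the spindle motors and spindle assembly factors, Kif11 encodes Eg5, which pushes the spindle poles apart. Kif11 read -0.35, 0.12 and -1.04 in MHCIIhi, against -3.30, -6.20 and -5.69 in MHCIIlo and, in kidney, -6.74, -6.54 and -6.34. MHCIIlo 1 alone of the MHCIIlo and kidney arrays measured it, and MHCIIhi was at least 8.87-fold above MHCIIlo (adjusted p = 0.00133). Tpx2, which activates Aurora A on the spindle, read 0.84, 1.28 and 0.04 in MHCIIhi, against -2.56, -4.16 and -3.48 in MHCIIlo and, in kidney, -4.44, -3.82 and -3.97. MHCIIlo and kidney overlapped, with a difference of -0.67 ± 0.44 (adjusted p = 0.193), and MHCIIhi was at least 16.6-fold above MHCIIlo (adjusted p = 0.000392). Kif2c, for MCAK, which takes microtubules apart at centromeres, read -1.52, -1.06 and -1.85 in MHCIIhi, against -5.40, -6.23 and -5.67 in MHCIIlo and, in kidney, -6.26, -7.79 and -8.01. It was measured in MHCIIhi alone, at least 5.45-fold above MHCIIlo and at least 22.7-fold above kidney.

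The 7 midzone and cytokinesis genes were all higher in MHCIIhi than in MHCIIlo. Shcbp1, which localises to the midbody, read 1.77, 2.12 and 0.79 in MHCIIhi, against -1.70, -3.45 and -4.06 in MHCIIlo and, in kidney, -3.21, -2.87 and -2.93. MHCIIhi was at least 21.4-fold above MHCIIlo (adjusted p = 0.000679), and the kidney arrays lay within the range of MHCIIlo. Kif23 and Racgap1 together form centralspindlin, which bundles midzone microtubules. Kif23 read 1.36, 1.59 and 0.65 in MHCIIhi, against -1.03, -1.45 and -1.39 in MHCIIlo and, in kidney, -0.40, -0.91 and -0.67, and was the only gene of the 39 for which every kidney array lay above every MHCIIlo array. Kidney exceeded MHCIIlo by 0.64 ± 0.27 (adjusted p = 0.0595), which missed the threshold, and MHCIIhi exceeded MHCIIlo by 5.62-fold (adjusted p = 0.000415). Racgap1 read 0.13, 0.37 and -0.73 in MHCIIhi, against -2.40, -2.35 and -2.50 in MHCIIlo and, in kidney, -2.93, -2.91 and -3.42. It was 5.07-fold higher in MHCIIhi than in MHCIIlo (adjusted p = 0.00067), and kidney minus MHCIIlo was -0.67 ± 0.29 (adjusted p = 0.0608).

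Prc1, the crosslinker of antiparallel microtubules, behaved unlike Kif23 and Racgap1 in kidney. It read 3.12, 3.52 and 2.49 in MHCIIhi, against 0.79, 0.14 and 0.28 in MHCIIlo and, in kidney, -2.56, -1.75 and -2.29. Its steps were 6.22-fold from MHCIIhi to MHCIIlo (adjusted p = 0.000655) and 6.08-fold from MHCIIlo to kidney (adjusted p = 9.01e-05). Anln, for anillin of the contractile ring, read -1.43, -0.95 and -1.42 in MHCIIhi, against -6.38, -4.60 and -5.72 in MHCIIlo and, in kidney, -7.12, -6.24 and -6.53. It was measured in MHCIIhi alone, at least 6.30-fold above MHCIIlo (adjusted p = 0.000334). Ect2, which activates RhoA at the midzone, and Kif20a, a midzone motor, differed by 3.54 ± 0.49 (adjusted p = 0.00109) and 3.93 ± 0.42 (adjusted p = 0.000388) between the intestinal groups, and their MHCIIlo and kidney arrays overlapped.

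**Figure D2:**
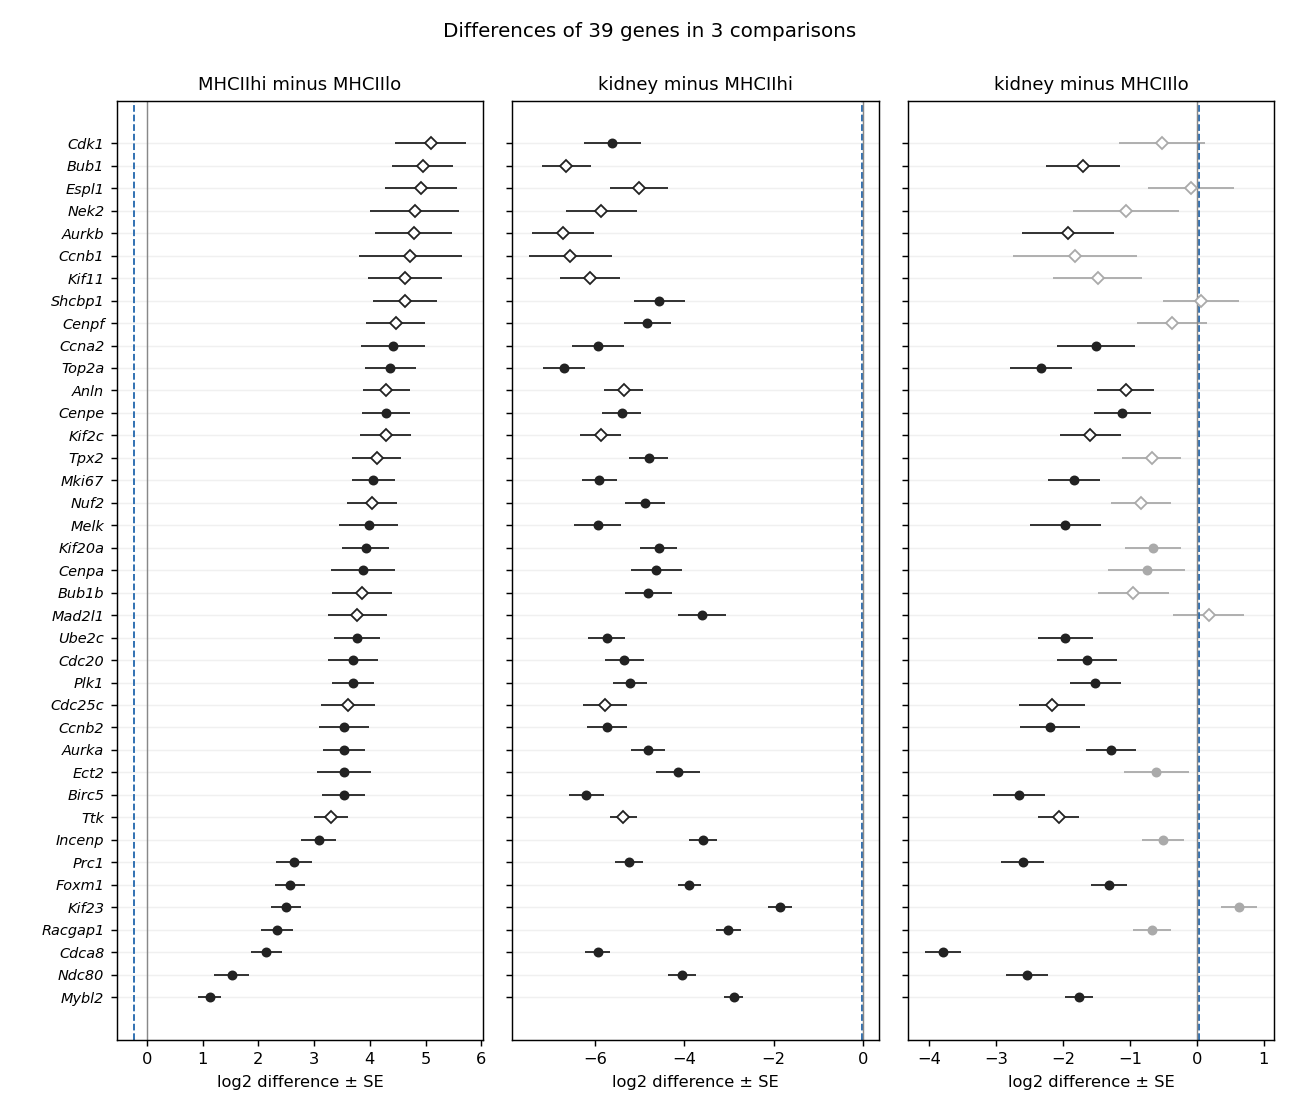
Log2 differences ± SE of the 39 genes in 3 comparisons, ordered by the difference between MHCIIhi and MHCIIlo. Black marks passed the call and grey marks did not; circles are genes measured on all arrays of both groups, open diamonds the others, and the dashed line is the median of all genes tested (-0.24, -0.02 and 0.04). All 39 lie above that line in the left panel and below it in the middle panel, and 22 are called lower in the right panel.

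The kidney comparisons asked how the same genes stood in another epithelium. Against MHCIIhi, all 39 were lower in kidney, by a median fitted difference of -5.34, with adjusted p between 3.22e-07 and 0.000361. In this comparison 22.8% of all genes tested were called lower and 25.6% higher, and no array of the groups overlapped for the 39 genes, against 72.2% of all genes tested without overlap. For 10 genes the value is a bound, from at least 8.36-fold (Ttk) to at least 77.7-fold (Aurkb), and the median with these at their bound was -4.88. For the 29 genes measured on all arrays of both groups it was -4.83, from -6.70 for Top2a to -1.86 for Kif23.

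Against MHCIIlo, 22 of 39 were called lower in kidney and 0 higher in the limma fit (0 under each alternative run as well), with a median of -1.48, where 27.8% of all genes tested were called lower and 29.8% higher. This comparison shares the MHCIIlo arrays with the intestinal one and the kidney arrays with the comparison above. Of the 22, 16 were measured on all arrays of both groups: Mki67, Top2a, Ccna2, Ccnb2, Plk1, Aurka, Melk, Foxm1, Mybl2, Cdc20, Ube2c, Birc5, Cdca8, Cenpe, Ndc80 and Prc1. For Bub1 and Aurkb, measured on MHCIIlo 1 alone of these 6 arrays, the bounds were at least 2.40-fold and at least 2.80-fold. The remaining 4, Cdc25c, Ttk, Kif2c and Anln, were measured on no array of either group, so no fold is given for them, and the lower values in kidney accompany the lower limit of measurement there. The other 17 genes were not called. Of these, Incenp, Cenpa, Kif20a, Kif23, Racgap1 and Ect2 were measured on all arrays of both groups, and the other 11, Cdk1 and Mad2l1 among them, were not. The 22 genes measured on all arrays of both groups had a median difference of -1.58. For 25 of 39 genes kidney and MHCIIlo were without overlap, against 78.2% of all genes tested. The median difference was -0.98 without MHCIIlo 1, and without that array 17 genes were called lower, where 28.6% of all genes tested were. Ccna2, Aurka, Bub1, Aurkb and Cenpe were then no longer called, with differences of -0.80, -0.98, -1.13, -1.18 and -0.67. With normexp correction 37 genes were called lower, but so were 40.1% of all genes tested, whose median moved to -0.61.

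The 39 genes moved together between arrays of a group as well. Against the mean of the other MHCIIhi arrays, MHCIIhi 3 was lower for 39 of 39 genes, by a median of -0.97 (-1.56 to -0.23), and MHCIIhi 2 was higher for 39 of 39, by a median of 0.80. Over all genes tested the medians of the same quantity were 0.13 and -0.09, and 57.72% and 42.95% of all genes lay above that mean. MHCIIhi 3 lay on the slide of the MHCIIlo arrays and MHCIIhi 1 and 2 on another, so slide and replicate cannot be told apart for this shift. MHCIIlo 1 was higher than the mean of MHCIIlo 2 and 3 for 35 of 39 genes, by a median of 1.26. All genes tested had a median of -0.08 there, and MHCIIlo 1 was higher for 45.05% of them. Of the 22 genes measured on all MHCIIlo arrays it was higher for 20, all but Mybl2 and Ndc80, by a median of 0.98, up to 2.14 for Ccna2. In kidney the arrays lay closer, with medians between -0.32 and 0.39. Median SDs over the 39 genes were 0.60 in MHCIIhi, 0.77 in MHCIIlo and 0.32 in kidney. Without MHCIIhi 3 and MHCIIlo 1, a choice made after the values were seen, 39 of 39 genes were called higher in MHCIIhi, with a median of 4.70, and 18.2% of all genes tested were. These arrays were the lowest of MHCIIhi for 38 genes and the highest of MHCIIlo for 34, so leaving them out widens the gap by construction.

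**Figure D3:**
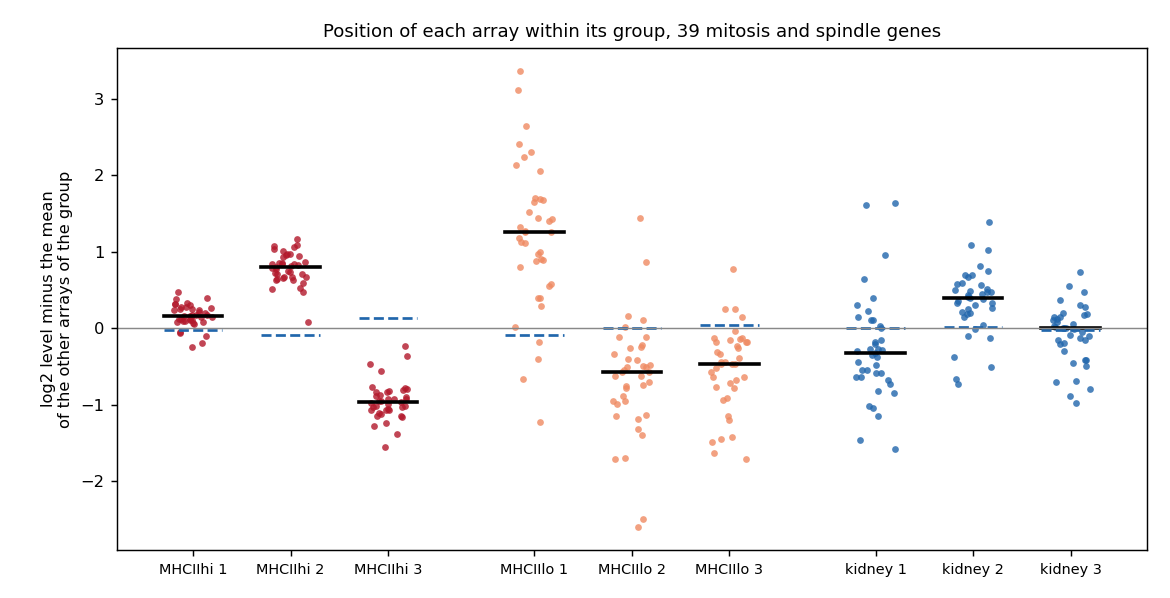
Each dot is 1 of the 39 genes, placed by its log2 level on an array minus the mean of the other 2 arrays of the group. Black bars are the median of the 39 genes and dashed bars the median of all genes tested; MHCIIhi 3 sits below 0 for every gene (median -0.97) and MHCIIlo 1 sits above it for 35 genes (median 1.26).

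Markers of crypt and villus cells differed between the same groups and in part between the same arrays, and their part in the result was not tested. Of 8 intestinal stem cell markers, 5 were higher in MHCIIhi than in MHCIIlo and none lower, and their summed level, as log2, ran from 4.24 to 5.08 in MHCIIhi, 2.59 to 2.89 in MHCIIlo and 1.78 to 2.24 in kidney. The lowest MHCIIhi value, 4.24, was that of MHCIIhi 3. For MHCIIlo 1 to 3 the sum was 2.67, 2.59 and 2.89, so it was highest in MHCIIlo 3. It rests there largely on Rnf43, which was not called and read 1.35, 1.74 and 1.91, lowest in MHCIIlo 1. Olfm4, at -1.54, -3.15 and -2.35, and Smoc2, at -1.04, -1.79 and -1.46, were highest in MHCIIlo 1, as were Lgr5 and Axin2. Values per array of Ascl2, Sox9 and Ephb3 are not given here. Of 9 enterocyte markers, which define absorptive villus cells, 8 were lower in MHCIIhi and none higher. Their summed level was 9.79, 9.69 and 10.78 for MHCIIhi 1 to 3 and 11.31, 11.95 and 11.86 for MHCIIlo 1 to 3, so MHCIIhi 3 and MHCIIlo 1 lay nearest the other group, and in kidney it was 0.66 to 2.20 with Apoa1, Rbp2 and Sis at background. Of 5 Paneth cell markers 4 were higher in MHCIIhi (7.61 to 8.06 against 5.14 to 6.75), and of 7 goblet cell markers 5 were (9.99 to 10.93 against 8.48 to 9.87). The 6 epithelial markers included none called between the intestinal groups (0 higher, 0 lower; summed levels 10.36 to 10.56 and 10.72 to 10.92), and in kidney they summed to 6.81 to 7.04. All 9 kidney tubule markers were measured on all kidney arrays (9.95 to 10.05) against -0.93 to 0.53 in the intestinal groups.

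Markers of other cell types that a sort can carry were read as well, and their part in the result was not tested either. Of 10 T cell and intraepithelial lymphocyte markers, 7 were lower in MHCIIhi (summed level 0.66 to 1.79) than in MHCIIlo (2.50 to 3.43), and of 8 B cell and plasma cell markers 3 were (2.45 to 2.77 against 4.80 to 5.35). None of either list was higher in MHCIIhi. Kidney cells had T cell marker sums of 0.39 to 0.88, with Cd3g, Cd3d, Gzma and Il2rb at background. Of these 10 markers, 6 were lower in kidney than in MHCIIhi and 2 were higher, with a list median of -2.35. The 2 were Cd8a (2.31 ± 0.46, adjusted p = 0.00195) and Ptprc, which encodes the gated CD45 (1.45 ± 0.44, adjusted p = 0.0176). Of 6 macrophage and dendritic cell markers tested, Lyz2 was higher in MHCIIhi and Csf1r, C1qb and Itgax lower. The list of 8 summed to 6.62 to 7.43 in MHCIIhi and 3.96 to 5.68 in MHCIIlo, sums carried by Lyz2, which read 7.42, 7.18 and 6.60 in MHCIIhi, against 4.96, 3.59 and 5.54 in MHCIIlo. Of 6 fibroblast and smooth muscle markers tested, 4 were lower in MHCIIhi, and the list of 8 summed to 4.79 to 5.04 there, with Col1a1, Col3a1, Lum and Pdgfra at background, to 5.60 to 6.07 in MHCIIlo and to 3.50 to 4.20 in kidney. In the intestinal groups these sums are mostly Acta2, which was not called, at 4.77, 4.99 and 5.01 in MHCIIhi, against 5.69, 5.55 and 5.61 in MHCIIlo. The genes called lower in MHCIIhi were Col1a1, Col1a2, Col3a1 and Dcn. The 6 endothelial markers summed to at most -1.32 in the intestinal groups, with Pecam1, Cdh5, Kdr and Emcn at background, and 4.37 to 5.54 in kidney.

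Other genes of the pathway were read from 8 lists, which like the 39 genes were chosen with earlier results known. Of 62 other mitosis genes (condensins, kinetochore subunits, kinesins and spindle proteins), 54 were higher in MHCIIhi than in MHCIIlo and none lower, with a median of 3.37. Among them Ska1, of the kinetochore, Hmmr, a spindle protein, and the kinesin Kif14 were at least 16.3-fold, 10.9-fold and 8.34-fold higher, bounds that do not rank them. In kidney 54 of the 62 were lower than in MHCIIhi and 2 higher, Pttg1 (securin, 1.63 ± 0.16, adjusted p = 3.09e-05) and Kif24 (1.37 ± 0.22, adjusted p = 0.000501). Against MHCIIlo, 26 (41.9%) were lower in kidney and 10 (16.1%) higher, beside 27.8% and 29.8% of all genes tested. Spc25, another subunit of the complex of Ndc80 and Nuf2, was 3.34 ± 0.33 higher in kidney than in MHCIIlo (adjusted p = 2.13e-05), with levels of 0.93, 0.60 and 0.17 in kidney, -2.33, -2.91 and -3.08 in MHCIIlo and 0.39, 0.62 and -0.38 in MHCIIhi. The kidney arrays thus lay clear of MHCIIlo and overlapped MHCIIhi.

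General subunits of the same machines were listed apart. Of 13 subunits and activators of the anaphase-promoting complex, 2 were higher in MHCIIhi than in MHCIIlo, Cdc23 (1.60 ± 0.21, adjusted p = 0.000922) and Anapc5 (1.26 ± 0.20, adjusted p = 0.0022), with a list median of 0.43. That share, 15.4%, lies near the 14.9% of all genes tested. Of 20 genes of the general spindle, checkpoint and cohesin, 5 (25.0%) were higher and 1 lower, with a median of 0.42. They included Kntc1, a kinetochore protein, at least 13.0-fold higher, the cohesin Smc3 (1.60 ± 0.28, adjusted p = 0.00295), and Clasp1, a microtubule stabiliser, which was lower (-1.09 ± 0.24, adjusted p = 0.00742). In kidney minus MHCIIhi the medians of the same lists were 0.11 and -0.39, with 0 and 1 genes higher and 1 and 4 lower. The shares lower were 7.69% and 20.0%, below the 22.8% of all genes tested, and 25.6% of all genes tested were higher. Against the median of all genes tested, the lists stood at 0.67 and 0.66 and the 39 genes at 4.11 in MHCIIhi minus MHCIIlo.

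Entry into the cycle was read from 4 further lists. Of 8 G1 cyclins and kinases, 7 were higher in MHCIIhi than in MHCIIlo and none lower, led by Cdk6 (3.78 ± 0.29, adjusted p = 0.00023), Ccnd1 (3.06 ± 0.56, adjusted p = 0.00371) and Cdk4 (2.97 ± 0.35, adjusted p = 0.000566). In kidney 4 of these 8 (50%) were higher than in MHCIIlo and 3 (37.5%) lower, beside 29.8% and 27.8% of all genes tested. Of 17 E2F, pocket protein and MuvB genes, 6 (35.3%) were higher in MHCIIhi, beside 14.9% of all genes tested. They included E2f7, a repressor, at least 8.52-fold, E2f8 by 3.05 ± 0.46 (adjusted p = 0.00161) and the MuvB subunit Lin9 at least 4.89-fold. Of the 4 kinases and phosphatases that act on Cdk1, 3 were higher, Cdc25b by 2.37 ± 0.21 (adjusted p = 0.00023), Pkmyt1 by 1.99 ± 0.21 (adjusted p = 0.000384) and Wee1 at least 1.52-fold, so that activators and inhibitors of Cdk1 were higher together. Cdc25b also belongs to the list of other mitosis genes and is counted in both. Of 6 CDK inhibitors tested, Cdkn2c was higher (1.39 ± 0.26, adjusted p = 0.00407) and Cdkn2b lower (-1.62 ± 0.30, adjusted p = 0.00362). Each is a share of 16.7%, near the 14.9% called higher and 16.1% called lower of all genes tested.

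Of 24 DNA replication genes, 21 were higher in MHCIIhi than in MHCIIlo and none lower, with a median of 3.45, beside 3.88 for the 39 genes. They included the polymerases Pole and Pola1, each at least 22.1-fold higher, and Mcm3 of the replicative helicase (4.47 ± 0.42, adjusted p = 0.000273). In kidney all 24 were lower than in MHCIIhi, by a median of -2.55. Against MHCIIlo, 9 of 24 (37.5%) were higher in kidney and 5 (20.8%) lower, beside 29.8% and 27.8% of all genes tested. Their median was 0.46, where the 39 mitosis genes had 0 higher and 22 lower, with a median of -1.48. Mcm2 was 2.29 ± 0.34 higher in kidney (adjusted p = 0.000283), Pola1 at least 4.84-fold, and Mcm10 was lower by -4.84 (adjusted p = 8.04e-07). The difference between the lists was not tested.

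**Figure D4:**
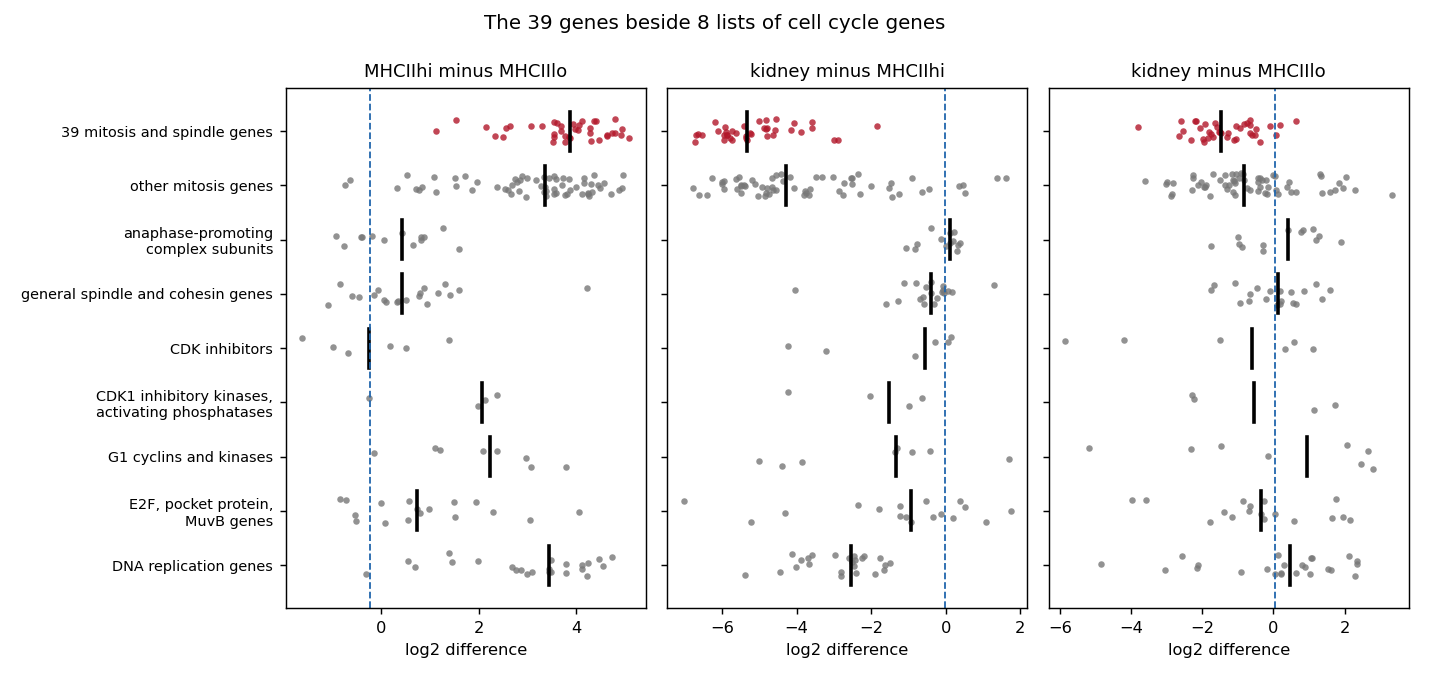
Log2 differences in 3 comparisons for the 39 genes (red) and for 8 lists of cell cycle genes (grey). Each dot is a gene, black bars are list medians and the dashed line is the median of all genes tested; in the left panel the mitosis, DNA replication and G1 lists lie to the right, with medians of 3.88, 3.37, 3.45 and 2.24, and the anaphase-promoting complex and general spindle lists lie near 0, with medians of 0.43 and 0.42.

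A further look was possible for the 20 of 39 genes that had more than 1 probe. Of 25 probes other than the ones used, 17 were well above background on all MHCIIhi arrays, and for all 17 every MHCIIhi array lay above every MHCIIlo and kidney array. The 17 were picked by their brightness in MHCIIhi, the group where the 39 genes are high, so they give no separate support. For 7 of the 17, measured on no MHCIIlo and no kidney array, that outcome follows from how they were picked. A further probe, of Ccnb1, was measured on no MHCIIlo array, so its place above MHCIIlo follows likewise. The 3 of the 17 that were measured on all 9 arrays belong to Mki67, Cdca8 and Kif23. Their differences between the intestinal groups were 4.36, 1.81 and 2.62, beside 4.06, 2.15 and 2.49 from the probes used. Some of the 17 not measured on all MHCIIlo arrays lay further from the probe used, such as Racgap1 (4.79 beside 2.34) and Cenpf (1.95 beside 4.46). In kidney minus MHCIIlo the other probe of Racgap1 gave 0.49 beside -0.67, and that of Mad2l1 1.18 beside 0.18. The remaining 8 probes were dim in MHCIIhi, 3 (of Cdk1, Cenpa and Kif11) measured on some of its arrays and 5 (of Top2a, Melk, Espl1, Nuf2 and Shcbp1) on none of the 9 arrays, and their differences are not given. With the mean of a gene's probes, 39 of 39 genes were called higher in MHCIIhi, with a median of 3.53.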

How the data were processed

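RNA of 9 samples was measured on single-colour Agilent arrays. The signal used, as deposited, is per the file headers an intensity from which Agilent Feature Extraction (version 10.5.1.1) had subtracted background, and it was not normalized between arrays. The deposited flags mark spots well above background and outlier spots. A further deposited set of values is a linear intensity, equal to that signal divided by the array's median (largest relative deviation 2.37e-05). For its making, the method is not given in the sources used.

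Control spots and outlier spots were left out, spots of a probe averaged and each gene read from its brightest probe by mean log2 level. Values were log2 signal minus the 75th percentile of the array. Genes that some group showed well above background on each of its 3 arrays were fitted over all 9 arrays with limma 3.58.1 in R 4.3.3 (lmFit, eBayes), with group as the factor and the data.table package (version 1.17.8) for reading. Tables and figures were made with Python 3.11.15, pandas 2.3.3, numpy 2.4.6 and matplotlib 3.10.9. The number of arrays, 3 a group, limits the precision. The fit was checked on simulated data before use. The labels call the replicates independent. Gene names were brought up to date through RefSeq (GRCm38.p6) by accession, which matched 24375 probes, and the file's name was kept for 16799. The members and lists were chosen with earlier results of these data known. Per-array values were given for the genes with the largest and smallest intestinal difference of each role and for those whose call differed from most of their role. Ccnb2, Mad2l1, Nuf2 and Kif23 meet neither condition and were added after their values were seen. From each list up to 3 called genes per direction and comparison were named, those with the largest differences, of which some are printed. The alternatives were other scalings, background corrections, filters, probe rules, blocks, and leaving out each array.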

Additional observations from a re-analysis of the deposited data

How the results depend on the processing

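Over the alternatives run, the count of genes higher in MHCIIhi than in MHCIIlo stayed at 39 except with normexp correction (33), with slide as a fixed block (35), with a filter that requires all 9 arrays (22, because 22 genes pass it) and when an array was left out (38 to 39). In the same comparison no gene was lower. All 39 genes stayed lower in kidney than in MHCIIhi except under the filter on all 9 arrays (22 of the 22 tested). Genes lower in kidney than in MHCIIlo numbered 22, and 37 with normexp correction, 17 with quantile normalization and 17 with slide as a random block. They numbered 19 when scaled to the median of probes above background on all arrays, 29 with the mean of a gene's probes and 17 to 23 when an array was left out. The filter on all 9 arrays gave 16 of the 22 tested, and a filter on the compared groups alone 16 of the 29 tested. With the replicate block the 3 counts were 39, 39 and 21, and Cenpe in kidney minus MHCIIlo was the gene whose call changed. Deviations of same-numbered arrays correlated between -0.35 and 0.28. Whether the replicate numbers pair the samples cannot be told from these, because there were 3 arrays a group and differently numbered arrays were not set beside them. Leaving out both MHCIIhi 3 and MHCIIlo 1, which was chosen after seeing the data, the counts were 39, 39 and 18. Differences that changed sign, where the main or the alternative value was called, were Ttk in MHCIIhi minus MHCIIlo (-0.0605 with normexp correction), and in kidney minus MHCIIlo Mad2l1 (-1.34 with normexp correction) and Shcbp1 (-1.07 with normexp correction and -1.03 with the mean of its probes). The cause was not tested. Among single genes, 751 of the other values of MHCIIhi minus MHCIIlo kept direction and call and 11 lost the call. In kidney minus MHCIIhi all 724 kept both. In kidney minus MHCIIlo 644 kept the call or its absence, though not always the direction, 43 lost the call and 24 gained it. Uncalled differences that changed sign there were those of Cdk1 (up to 0.29), Cenpf (up to 0.20) and Espl1 (up to 0.68), among others. Dimness limits MHCIIlo most, where 22 of the 39 genes were measured on all arrays, 13 on some and 4 on none.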
